A study of Mus musculus with 16 samples.

Results

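Arc, Dusp1 and Btg2 are 3 protein-coding genes whose transcription is switched on within minutes by neuronal activity and other stimuli. They were found by gene symbol, and each has 1 entry in the chow table and 1 in that of the high-fat diet, among 6686 and 6540 listed tests. The mice carried the PNOC-L10a-EGFP genotype on the C57BL/6N strain and were 10 to 12 weeks old. One set received a control diet (CD, called chow here) and the other a high-fat diet (HFD), each for 3 days, and every group described below shares the genotype, strain, age and tissue. In this mouse the ribosomal protein L10a carries a green fluorescent protein, so that an antibody pulls down ribosomes of prepronociceptin neurons with the RNA bound to them. For each diet there were 4 libraries of whole hypothalamus (input) and 4 of the immunoprecipitate, 16 in all. The labels do not say how the tag is driven in these cells or whether a library came from 1 animal or several. P-values therefore measure only the spread between these libraries, which may be technical.

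Activity-induced genes respond without new protein synthesis. Calcium entry and cyclic AMP activate the transcription factor CREB, which binds the cyclic AMP response element (CRE), and mitogen-activated protein (MAP) kinases activate the factors that bind the serum response element. Arc encodes a cytoskeleton-associated protein that promotes the endocytosis of AMPA-type glutamate receptors, and its mRNA travels into dendrites. Dusp1 encodes a nuclear phosphatase that switches MAP kinases off. Btg2 encodes an antiproliferative protein that binds the CCR4-NOT deadenylase and speeds the removal of poly(A) tails from mRNA. In the brain these transcripts are widely used to mark recently active cells, although Dusp1 and Btg2 are also induced in many cells that are not neurons.

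The promoters of Dusp1 and Btg2 are shown because both genes are known targets of CREB. Of the 3 genes these 2 matched the RefSeq promoter table (GRCm38.p6), which gives 250 bases before and 50 bases after the transcription start. Both sequences read 5′ to 3′ on the minus strand, with the palindromic full CRE, TGACGTCA, in capitals. They lie at chr17:26508423-26508722 for Dusp1 and at chr1:134079106-134079405 for Btg2.
Dusp1: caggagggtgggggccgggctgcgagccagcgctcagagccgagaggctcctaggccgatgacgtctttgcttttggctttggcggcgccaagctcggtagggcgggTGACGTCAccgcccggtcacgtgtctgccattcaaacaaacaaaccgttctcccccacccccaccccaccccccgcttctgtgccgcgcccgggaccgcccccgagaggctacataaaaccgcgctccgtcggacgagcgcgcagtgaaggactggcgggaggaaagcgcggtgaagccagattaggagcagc
Btg2: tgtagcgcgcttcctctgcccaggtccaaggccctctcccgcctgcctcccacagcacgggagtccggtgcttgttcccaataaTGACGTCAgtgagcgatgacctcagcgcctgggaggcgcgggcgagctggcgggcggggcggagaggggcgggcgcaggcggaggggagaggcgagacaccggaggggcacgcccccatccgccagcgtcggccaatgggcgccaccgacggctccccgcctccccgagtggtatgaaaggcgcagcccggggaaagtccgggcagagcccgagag
The full CRE began 143 bases before the start in Dusp1 and 166 bases before it in Btg2. It occurred in 1.79% of the 32851 promoters in the table. The shorter CRE core TGACG, searched on both strands and contained in each full CRE, occurred once more in Dusp1 at 191 bases before the start, and in 20.8% of all promoters. The TATA motif TATAAA was also searched on both strands and was in neither window, against 13.6% of all promoters. Both promoters hold the same motif. Its relation to the levels in input and immunoprecipitate, described next, was not tested.

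The processed data gave a single FPKM (fragments per kilobase, a read density scaled to transcript length and to the fragments mapped) for each group, made by the authors, so there is no value per library, no SD and no known read depth. All FPKM, log2 folds, p-values and q-values for a single diet are from the authors' deposited table. The tables list significant tests only, and a gene not listed here cannot be called unchanged. Their q-values imply about 48459 tests over both tables, and an equal split, 24230 for each, was assumed. Of these, 27.6% were called in chow and 27.0% after the high-fat diet at a q of 0.05. All 3 genes were called in both. Enriched tests made up 14.8% and 14.9% of the tests, and depleted tests 12.7% and 12.1%. The smallest p-value of the authors' test, 5e-05, corresponds to a q of 0.000379. Of the listed tests, 49.6% in chow and 47.2% after the high-fat diet held this smallest p-value. A q of 0.000379 therefore does not rank these tests by strength.

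Pnoc, which encodes prepronociceptin and defines the targeted cells, was enriched. In the authors' deposited tables its level rose from 4.62 to 19.9 FPKM in chow and from 4.35 to 19.8 FPKM after the high-fat diet. Of 8 neuronal markers 6 were enriched in each diet, and 1, Map2, was depleted in chow. All 8 astrocyte and all 8 oligodendrocyte markers and 6 of 8 microglial markers were depleted. Endothelial and mural markers had 5 of 8 depleted in each diet. Over listed tests that reached 1 FPKM, the log2 folds had a median of 0.41 in chow and 0.42 after the high-fat diet. Folds are also given relative to this value, called the reference median. Because only significant tests are listed, no chow fold lay between -0.296 and 0.292, and the median of all tests is not known. An enriched gene below the reference median is therefore not shown to be depleted. In such bulk samples fewer cells that express a gene and less of its RNA per cell cannot be told apart.

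Arc was depleted on the tagged ribosomes in both diets, and nearly to the same level. The gene (ENSMUSG00000022602) occupies chr15:74669083-74672570 (GRCm38.p6, minus strand), with 3 exons in its longest coding transcript and no other annotated gene in that span. In chow the input held 5.43 FPKM and the immunoprecipitate 3.24 FPKM, or 59.6% of input. After the high-fat diet the levels were 5.92 and 3.57 FPKM, or 60.4% of input. Both inputs were thus higher than both immunoprecipitates. The log2 fold was -0.75 in chow (standard error 0.29) and -0.73 after the high-fat diet (0.29), each at q = 0.000379 in the authors' deposited table. Relative to the reference median these folds were -1.16 and -1.15. Arc was a shallow case among depleted transcripts, since 74.8% of depleted tests in chow and 76.5% after the high-fat diet lay further below their input.

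Dusp1 moved the other way and was enriched in both diets. The deposited span of this gene (ENSMUSG00000024190) is chr17:26505590-26508519 (minus strand), with 4 exons in its longest coding transcript. The annotation extends the gene to 26562128 through longer transcripts, which the deposited span leaves out. In chow its input level of 12.6 FPKM rose to 18.9 FPKM on the ribosomes, or 150% of input. After the high-fat diet it rose from 11.6 to 18.6 FPKM, or 161% of input. Both immunoprecipitates lay above both inputs. The log2 fold was 0.59 in chow (standard error 0.26) and 0.69 after the high-fat diet (0.26), each at q = 0.000379 in the authors' deposited table. Measured against the reference median, the fold shrank to 0.18 and 0.26. Among enriched tests 53.1% in chow and 33.5% after the high-fat diet had a higher fold, which places Dusp1 near the middle in chow and in the upper part after the high-fat diet.

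Btg2 was depleted in both diets and was the lowest of the 3 genes in every group. The gene (ENSMUSG00000020423) occupies chr1:134075170-134079120 (minus strand), with 2 exons and no overlapping gene. In chow the input stood at 3.18 FPKM and the immunoprecipitate at 1.34 FPKM, or 42.1% of input. After the high-fat diet it was 2.98 and 1.73 FPKM, or 58.2% of input. Both inputs again exceeded both immunoprecipitates, and the immunoprecipitate of the high-fat diet stood above that of chow. The log2 fold was -1.25 in chow (standard error 0.35, q = 0.000379) and -0.78 after the high-fat diet (0.35, q = 0.000714) in the authors' deposited table. Relative to the reference median the folds were -1.66 and -1.20. Further below their input lay 51.6% of depleted tests in chow and 73.8% after the high-fat diet.

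**Figure D1:**
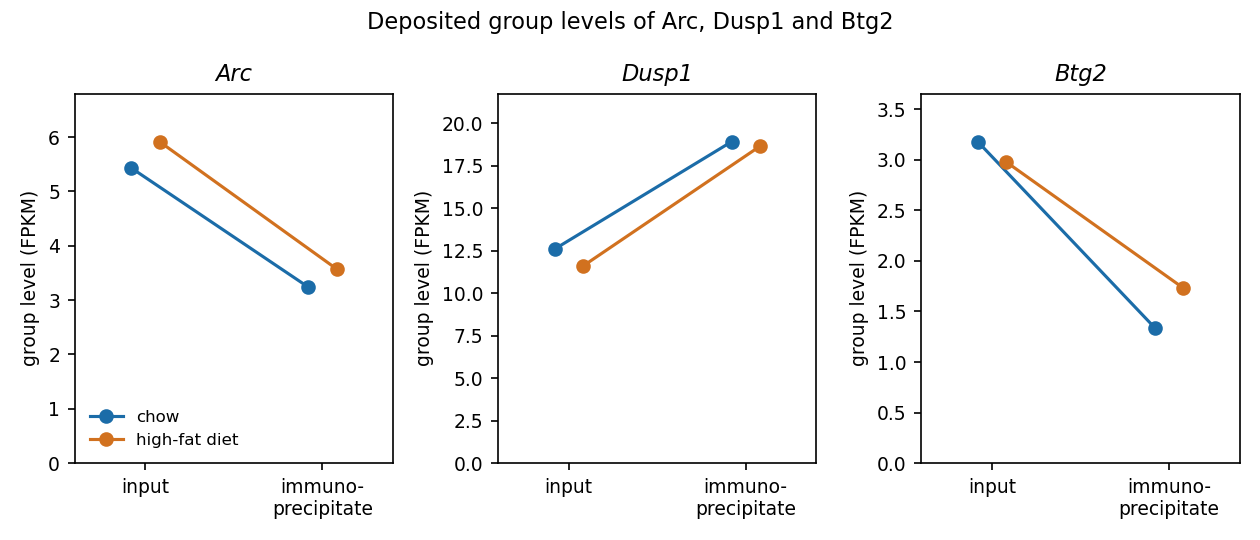
Group level in FPKM (linear axis from 0) of Arc, Dusp1 and Btg2 in input and immunoprecipitate, joined for each diet, with 1 deposited value per group and no error. The lines of Arc and Btg2 descend from input to immunoprecipitate in both diets, and those of Dusp1 ascend from 12.6 and 11.6 FPKM to 18.9 and 18.6 FPKM.

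FPKM is scaled to transcript length, and by this measure Dusp1 exceeded Arc and Arc exceeded Btg2 in all 4 groups. The cDNA was amplified, which can shift levels, so this order may not be that of the RNA itself. The distance between Dusp1 and the others widened on the ribosomes. The level of Dusp1 was 2.32 times that of Arc in the chow input and 5.83 times in the chow immunoprecipitate, and 1.96 and 5.21 times after the high-fat diet. Against Btg2 the level of Dusp1 was 3.96 and 14.1 times in chow, and 3.89 and 10.8 times after the high-fat diet. Arc and Btg2 kept a ratio between 1.71 and 2.42 throughout. The spread of the level within a group is not known, so the order of neighbouring genes within 1 group was not tested. The 95% intervals of the log2 folds, from the standard errors, ran from 0.07 to 1.10 for Dusp1 in chow, from -1.31 to -0.18 for Arc and from -1.93 to -0.56 for Btg2. The interval of Dusp1 thus overlapped neither of the others in chow, while those of Arc and Btg2 overlapped. After the high-fat diet the intervals ran from 0.17 to 1.20 for Dusp1, from -1.31 to -0.15 for Arc and from -1.47 to -0.09 for Btg2, with the same separation.

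**Figure D2:**
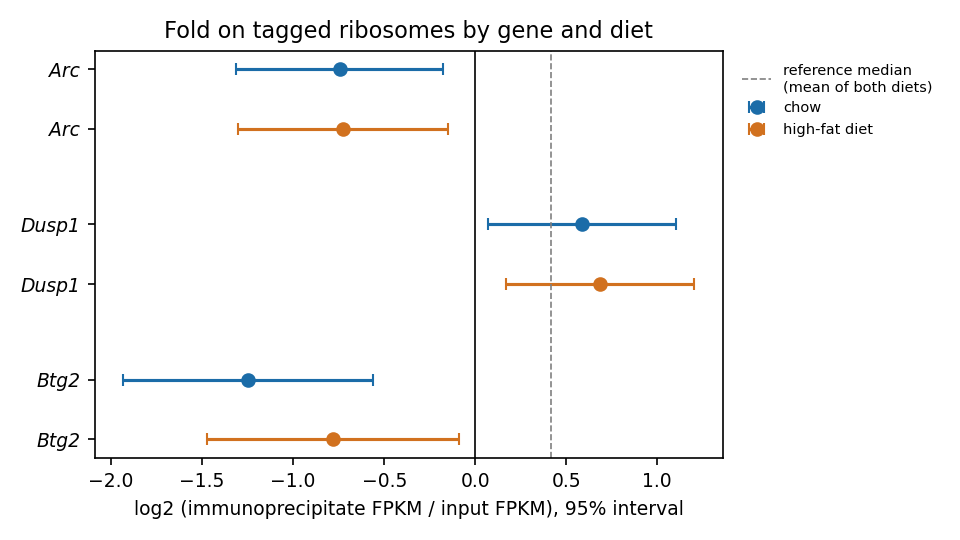
Log2 of immunoprecipitate over input FPKM (x axis) for each gene and diet, with points for the deposited fold and bars for its 95% interval. The dashed line is the mean of the reference medians of both diets (0.41 and 0.42). The intervals of Dusp1 lie above 0 and include the dashed line, and those of Arc and Btg2 lie below 0.

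Depletion of Arc and Btg2 was milder than that of most markers of cells other than neurons. In the deposited chow table microglial markers stood between 6.63% and 10.8% of input, and oligodendrocyte markers between 6.30% and 20.7%. Astrocyte markers ranged from 7.70% to 59.2% of input and endothelial and mural markers from 14.3% to 46.6%. Arc, at 59.6% of input, lay just above the highest of these markers, Aldoc, which encodes a glycolytic enzyme of astrocytes, and Btg2, at 42.1%, lay within the endothelial and mural range. After the high-fat diet the endothelial and mural markers stood between 11.0% and 27.4% of input, below Btg2 at 58.2%. Dusp1, at 150% of input in chow and 161% after the high-fat diet, lay within the range of the enriched neuronal markers, which reached 185% and 192%. The neuronal marker Map2 was depleted to 68.2% of input in chow, nearer to Arc than to the other listed neuronal markers, and was not listed after the high-fat diet. The summed level of listed markers in the immunoprecipitate was 41.5% and 42.9% of input for astrocytes (chow and high-fat diet), 11.1% and 11.5% for oligodendrocytes, 8.96% and 9.91% for microglia and 18.1% and 12.4% for endothelial and mural cells. No listed marker was at 0 in the immunoprecipitate. The part of these cells in the levels of Arc, Dusp1 and Btg2 was not tested.

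**Figure D3:**
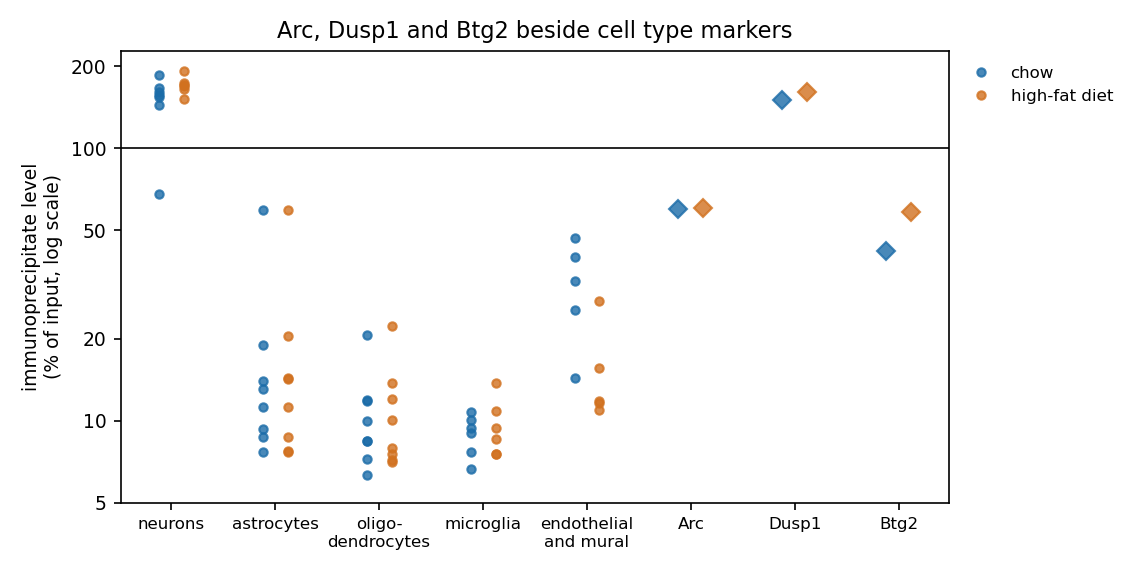
Immunoprecipitate level as a percentage of input (log axis) for listed markers of 5 cell classes (circles) and for Arc, Dusp1 and Btg2 (diamonds), by diet. The horizontal line is the input level. Dusp1 (150% and 161%) sits among the neuronal markers, whereas Arc (59.6% and 60.4%) and Btg2 (42.1% and 58.2%) sit below the line and above most glial markers.

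No difference between diets was detected in the fold of any of the 3 genes. The high-fat minus chow difference of log2 folds, centred on its median over 5149 tests listed in both tables, was 0.01 for Arc (95% interval -0.80 to 0.82), 0.09 for Dusp1 (-0.64 to 0.82) and 0.46 for Btg2 (-0.52 to 1.43). A two-sided z-test of these differences, a normal approximation, gave unadjusted p-values of 0.976, 0.804 and 0.355, and the adjusted p was 1 for each. Of all tests 0% passed after Benjamini-Hochberg adjustment (0 tests), and 1 had an unadjusted p under 0.05. The standard errors are wide, since the deposited p-values, as normal deviates, exceeded the statistics by a median factor of 1.96 (chow) and 1.95 (high-fat diet). For the 3 genes the gap was uneven. Taken from the p-values instead, the standard error of the difference fell from 0.41 to 0.26 for Arc. It fell from 0.37 to 0.22 for Dusp1 and from 0.50 to 0.37 for Btg2. Genes listed for 1 diet only did not enter. The z-test could therefore miss real differences, and its intervals may be wider than 95% intervals. The interval of Btg2 includes both 0 and a difference of 1 log2 unit, so its smaller depletion after the high-fat diet is not shown to differ from that in chow.

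Levels of Arc and Dusp1, and the input level of Btg2, differed little between diets (at most 10.3%). No test of a level is possible without values per library, and it is not stated whether both tables were scaled together. Arc stood 8.90% higher after the high-fat diet than in chow in the input and 10.3% higher in the immunoprecipitate. Dusp1 had a ratio of high-fat diet to chow of 0.92 in the input and 0.986 in the immunoprecipitate. Btg2 had a ratio of 0.937 in the input and 1.29 in the immunoprecipitate, which was the largest of these 6 changes. The immunoprecipitate ratio of Btg2 rested on low levels, 1.34 FPKM in chow and 1.73 FPKM after the high-fat diet. The median ratio over the shared tests was 0.99 in the input and 0.992 in the immunoprecipitate. A larger change of the immunoprecipitate level, in either direction, was seen in 6.51% of the shared tests for Btg2, 36.2% for Arc and 89.2% for Dusp1. For the input these shares were 40.5%, 29.0% and 30.1%.

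Early effector genes were listed in both directions, as were all tests (14.8% enriched and 12.7% depleted in chow, 14.9% and 12.1% after the high-fat diet). Of 30 early effector genes, a list that includes Arc, Dusp1 and Btg2, 8 were enriched and 10 depleted in chow, and 8 and 7 after the high-fat diet, in the authors' deposited tables. Relative to the reference median the split was 6 above and 12 below in chow, and 6 and 9 after the high-fat diet. In both diets Bdnf and Plk2 were enriched over input but lay below the reference median. The list's median log2 fold was -0.75 in chow and 0.38 after the high-fat diet, against 0.37 and 0.39 for all listed tests of any level. Gem, Tiparp and Sgk1 were depleted in chow and not listed after the high-fat diet. All 15 effectors listed in both tables (83.3% of the chow list and 100% of the other) had the same sign in both. Over all genes, 5549 tests with finite folds were listed in both, of 6686 in chow and 6540 after the high-fat diet. How many of these kept their sign was not counted, so neither result is shown to be particular to early effectors.

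Among the enriched effectors was Vgf, the precursor of secreted neuropeptides, which rose from 11.2 to 29.5 FPKM in chow and from 10.7 to 24.6 FPKM after the high-fat diet. Scg2, which encodes a granin of secretory vesicles, rose from 220 to 308 FPKM in chow and from 197 to 309 FPKM. Rgs2, which shortens G protein signalling, went from 48.4 to 76.0 FPKM and from 48.1 to 78.1 FPKM. Bdnf, the neurotrophin, had log2 folds of 0.36 and 0.38, and Plk2, a synaptic polo-like kinase, 0.33 and 0.41. These 4 folds lie below the reference medians of 0.41 and 0.42, although that of Plk2 after the high-fat diet lies above the median of all listed tests of any level (0.39).

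Among the depleted effectors Trib1, a pseudokinase that directs protein degradation, fell from 4.55 to 1.99 FPKM in chow and from 4.02 to 1.74 FPKM after the high-fat diet, which is close to the chow fold of Btg2. Plat, tissue plasminogen activator, fell from 4.31 to 2.54 FPKM and from 3.62 to 2.32 FPKM, close to Arc. Cyr61, a matricellular protein, had log2 folds of -2.36 and -2.29 at input levels of 0.601 and 0.560 FPKM. Zfp36, which like Btg2 promotes deadenylation, had log2 folds of -2.58 and -2.56, but its deposited locus is shared with a second identifier and its value is uncertain.

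Early transcription factors were listed in both directions as well, and most were not listed, as for all tests (27.6% and 27.0% called). Of 31 genes 2 were enriched and 3 depleted in chow (median log2 fold -0.31), and 3 and 5 after the high-fat diet (median -0.49), in the authors' deposited tables. Egr1, a zinc finger factor often used beside Arc as a marker of activity, rose from 21.7 to 28.9 FPKM in chow and from 18.0 to 25.8 FPKM after the high-fat diet. Fos, a subunit of the AP-1 factor, was listed after the high-fat diet alone, from 2.31 to 3.34 FPKM (log2 fold 0.53, q = 0.0158). Npas4, a neuronal factor driven by calcium, was listed in chow alone at -0.78, from 0.671 to 0.391 FPKM. Egr3 and Egr4 were listed after the high-fat diet alone. Egr3 had a log2 fold of -0.64 (3.64 to 2.34 FPKM) and Egr4 of -1.05 (0.364 to 0.176 FPKM). Npas4 and Egr4 thus lay under 1 FPKM in input and immunoprecipitate. A gene listed in 1 table is not shown to differ between the diets. Klf4 had log2 folds of -1.56 and -2.26, with levels under 1 FPKM in all 4 groups.

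**Figure D4:**
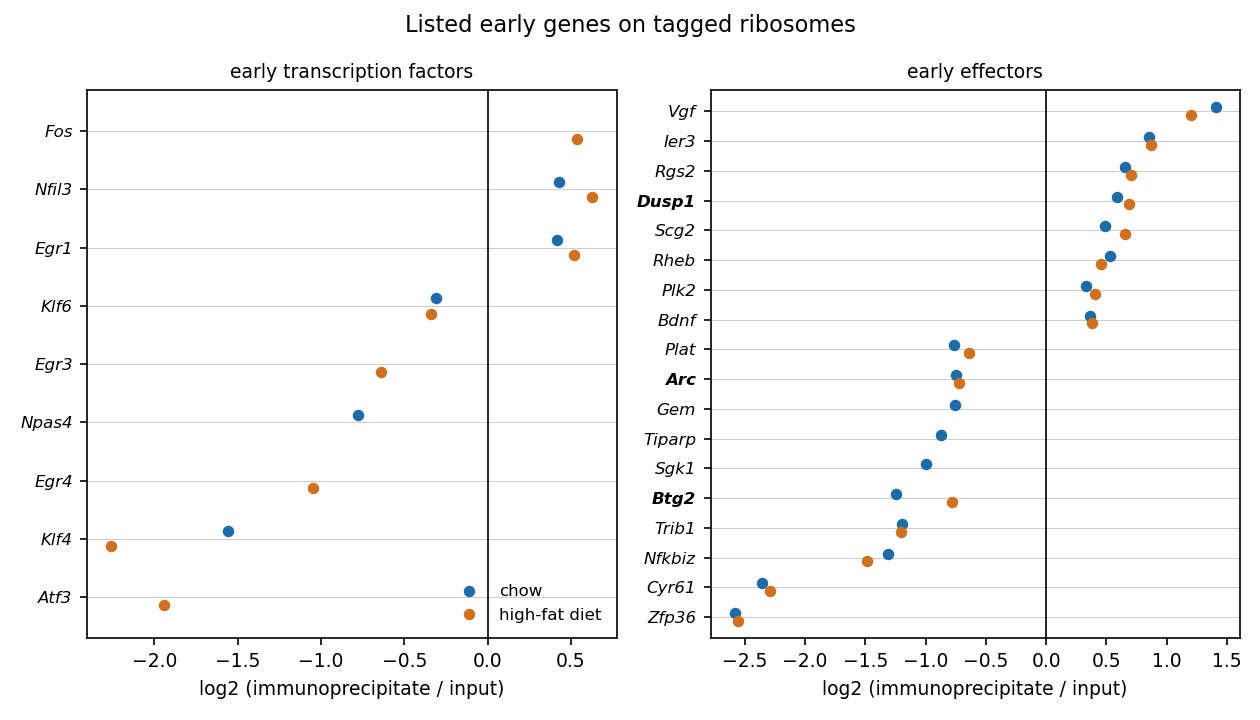
Log2 of immunoprecipitate over input (x axis) for each listed early transcription factor (left) and early effector (right), by diet; Arc, Dusp1 and Btg2 are in bold. The effectors range from -2.58 (Zfp36) to 1.41 (Vgf) in chow, with Dusp1 among the enriched and Arc and Btg2 among the depleted genes.

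Most listed relatives of Dusp1 were enriched as well. Among all tests 14.8% were enriched and 12.7% depleted in chow, and 14.9% and 12.1% after the high-fat diet. This list and those that follow were not tested against these shares. Of 12 MAP kinase phosphatase genes, Dusp1 included, 5 were enriched and 2 depleted in chow, and 4 and 1 after the high-fat diet, in the authors' deposited tables (medians 0.59 and 0.51). Above and below the reference median there were 4 and 3 in chow and 3 and 2 after the high-fat diet. In both diets Dusp8 was enriched over input but lay below the reference median. Dusp5, a nuclear phosphatase of ERK kinases, had the highest fold of the family, from 0.240 to 0.572 FPKM in chow and from 0.209 to 0.529 FPKM after the high-fat diet. Dusp4, another nuclear member, rose from 1.24 to 1.90 FPKM and from 1.33 to 1.89 FPKM. Dusp8 was the most abundant, with 25.3 and 32.5 FPKM in chow. Dusp16 fell from 8.49 to 5.90 FPKM in chow and from 8.11 to 5.97 FPKM after the high-fat diet, and Dusp10 fell in chow from 3.27 to 2.26 FPKM. Both act mainly on the JNK and p38 kinases.

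Genes of the kinase cascade on which these phosphatases act were also mostly enriched where listed. The shares over all tests were 14.8% enriched and 12.7% depleted in chow, and 14.9% and 12.1% after the high-fat diet. Of 22 genes of the MAP kinase cascade 7 were enriched and 2 depleted in chow, and 7 and 1 after the high-fat diet (medians 0.48 and 0.52), in the authors' deposited tables. Mapk10, the neuronal JNK, rose from 197 to 337 FPKM in chow and from 200.4 to 369 FPKM after the high-fat diet, and Mapk11, a p38 kinase, from 5.47 to 10.4 FPKM and from 5.10 to 10.5 FPKM. Nras was depleted at -1.45 and -1.28. Genes of calcium and CREB signalling had 10 enriched and 2 depleted of 28 in chow, and 9 and 1 after the high-fat diet. Relative to the reference median these counts were 8 and 4, and 7 and 3. Grin1, the obligatory NMDA receptor subunit, rose from 37.0 to 75.8 FPKM in chow, whereas Crtc2, a coactivator of CREB, fell in both diets, with log2 folds of -1.41 and -1.19.

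No listed relative of Btg2 was enriched. All tests together were 14.8% enriched and 12.7% depleted in chow, and 14.9% and 12.1% after the high-fat diet. Of the 6 genes of the BTG and TOB family 3 were depleted in each diet and 3 were not listed, in the authors' deposited tables. Tob1 fell from 32.9 to 23.0 FPKM in chow and from 31.2 to 24.8 FPKM after the high-fat diet. Tob2 fell too, with log2 folds of -0.94 and -0.83. Both encode antiproliferative proteins that, like Btg2, recruit the deadenylase. Of 14 genes of the deadenylases and the poly(A)-binding protein 0 were enriched and 4 depleted in chow, and 3 and 3 after the high-fat diet, the enriched ones being Cnot2, Cnot8 and Cnot3, whose locus is shared with a second identifier and whose value is uncertain. Cnot6, a catalytic subunit, fell from 8.56 to 3.17 FPKM in chow and from 9.03 to 3.49 FPKM after the high-fat diet. Pabpc1, the poly(A)-binding protein, fell from 225 to 128 FPKM and from 218 to 133 FPKM.

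**Figure D5:**
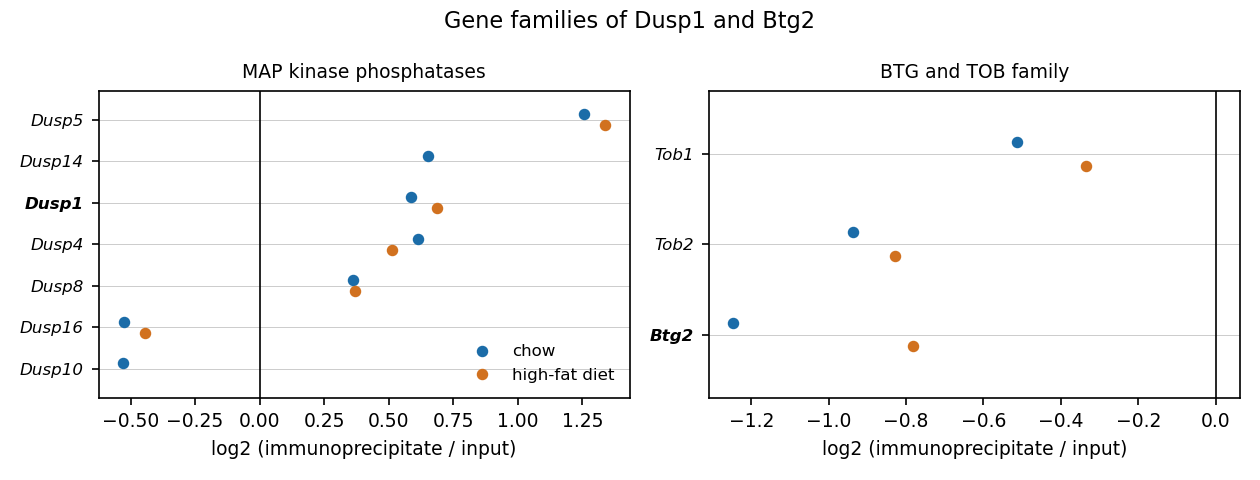
Log2 of immunoprecipitate over input (x axis) for the listed MAP kinase phosphatases (left) and the listed BTG and TOB genes (right), by diet. Dusp1 (0.59 and 0.69) is 1 of 5 enriched phosphatases in chow, and the 3 BTG and TOB genes lie below 0 in both diets.

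Listed partners of Arc at the synapse were mostly enriched over input, but most lay below the reference median. For all tests the shares were 14.8% enriched and 12.7% depleted in chow, and 14.9% and 12.1% after the high-fat diet. Of 26 genes of the postsynaptic density and of Arc interaction partners 8 were enriched and 3 depleted in chow, and 10 and 3 after the high-fat diet (medians 0.35 and 0.37), in the authors' deposited tables. Relative to the reference median, 4 lay above and 7 below in chow, and 6 and 7 after the high-fat diet. Dlg4, the scaffold of the postsynaptic density, rose from 272 to 401 FPKM in chow, and Ap2m1, a clathrin adaptor subunit that Arc binds, from 85.0 to 149.6 FPKM. Gria1, an AMPA receptor subunit, was depleted at -0.32 and -0.31. Dnm2, a dynamin that Arc binds in endocytosis, fell from 17.7 to 7.56 FPKM in chow and from 16.6 to 8.98 FPKM after the high-fat diet.

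Of 9 transcripts known to be carried into dendrites, Arc included, 2 were enriched and 4 depleted in chow, and 2 and 3 after the high-fat diet, in the authors' deposited tables (medians -0.65 and -0.73). Enriched and depleted tests made up 14.8% and 12.7% of all tests in chow, and 14.9% and 12.1% after the high-fat diet. None of the dendritic transcripts lay above the reference median, a median of listed tests only, in either diet (0 of 6 and 0 of 5 listed). Ddn, the dendritic protein dendrin, fell from 5.90 to 2.82 FPKM in chow and from 6.91 to 3.18 FPKM after the high-fat diet. Map2, which binds dendritic microtubules, fell from 353 to 240.5 FPKM in chow and was not listed after the high-fat diet. Bc1, a dendritic non-coding RNA, had log2 folds of -3.60 and -4.79. Dlgap3 (0.35 and 0.37) and Bdnf were enriched.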

How the data were processed

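RNA of whole hypothalamus (input) and of immunoprecipitated tagged ribosomes was sequenced. Per the labels' protocols, cDNA was amplified with the Ovation RNASeq System V2 from poly(T) and random primers, followed by Nextera XT libraries. Such amplification can shift levels between small RNA amounts, and no strand assignment is stated. Per the submitters' processing notes, the build was GRCm38.p6 and the tools were Cuffdiff, Cufflinks 2.2.1, HISAT2 2.1.0 and StringTie 1.3.4d. Their settings and the library scaling are not stated. The authors deposited, for each diet, 1 FPKM per group, the log2 fold of immunoprecipitate over input, a test statistic (a signed score without unit, per the file headers), and a p-value and q-value, for significant tests only (q up to 0.0499). No read depth or value per library is given (0 columns of per-sample values were set aside), so calls within a diet are the authors', at a q of 0.05.

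Repeats of a locus were merged to 1 test. Genes of the lists and markers were matched by exact symbol. A gene at a locus named for several genes was therefore counted as not listed. The standard error of a fold was the log2 fold over the statistic. Converted to a normal deviate, the deposited p-value exceeded the statistic by a median factor of 1.96 (chow) and 1.95 (high-fat diet), so these standard errors are wide. The smallest deposited p-value was 5e-05. Folds were compared between diets with a two-sided z-test over 5149 tests whose higher group reached 1 FPKM in both diets. Differences were centred on a median of 0.0062, p-values were adjusted by Benjamini-Hochberg (SciPy 1.17.1, pandas 2.3.3), and the test was checked on simulated data. The simulation drew its noise from the same standard errors, so it cannot show whether they are too wide. Its planted differences were much larger than those of the 3 genes. The number of tests behind the q-values was recovered from pairs of p and q, with both tables adjusted together (48459, range 48363 to 48815). Deposited spans start 1 base before the annotation and were written 1-based, and annotation came from GENCODE M21. The genes and all lists were chosen with earlier results of these data known. Named genes were the 3 genes, listed members of the lists and markers, and the 5 nearest tests by level pattern. The alternatives were no centring, other FPKM minimums, a pseudocount of 1 FPKM, standard errors from the p-value, a q of 0.01 and a 2-fold limit.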

Additional observations from a re-analysis of the deposited data

How the results depend on the processing

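Under a pseudocount of 1 FPKM, centring on the reference median (listed tests at 1 FPKM or more) and a q of 0.01, the folds of Arc, Dusp1 and Btg2 kept their direction in both diets. The alternatives for Arc in chow and for its difference between diets were added after the data were seen. With the pseudocount the folds ranged from -0.84 (Btg2, chow) to 0.64 (Dusp1, high-fat diet), and the difference of Arc between diets turned from 0.01 to -0.0019. The difference of Btg2 fell to 0.29 with the pseudocount and was 0.46 or 0.47 under the other settings; its level is below the 5 FPKM minimum, so that setting gave it no value. No test differed between diets by the z-test under any of the 5 alternatives (0 of 3937 to 5549 tests, with 1 or 2 at an unadjusted p under 0.05).

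Counts of early genes depended on the limits. At a q of 0.01 the early transcription factors had 1 enriched and 1 depleted in chow and 3 depleted after the high-fat diet. With at least 1 FPKM, 1 remained depleted in chow and 2 after the high-fat diet. With a 2-fold limit 0 were enriched in either diet, and 1 (chow) and 3 (high-fat diet) depleted. Of the early effectors the same limit left 1 enriched in each diet, and 5 (chow) and 4 (high-fat diet) depleted.

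No library was left out in turn. No paired analysis was possible because the tables hold 1 value per group and none per library. The difference between diets was least precise for Btg2, with a standard error of 0.50 against 0.41 for Arc and 0.37 for Dusp1.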

Other observations

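The genes most like each of the 3 in level pattern were found by the Euclidean distance of 4 log2 group levels, centred on the gene mean, among 4165 tests with at least 1 FPKM in every group. These are 4 values per gene, from the authors' deposited tables, and the ranking is a description. Nearest to Dusp1 was Rap1gap, a GTPase-activating protein for Rap, at a distance of 0.0145. It had log2 folds of 0.59 and 0.68, followed by Irf2bpl, Pomk, Xxylt1 and Rnft2. Nearest to Btg2 was the kinesin gene Kif13a at 0.0865, with log2 folds of -1.20 and -0.86, followed by Dnm2, Ccdc88a, Trim36 and Tmlhe. For Arc, the same measure was added after the data were seen and gave Mindy2 at 0.0318, with log2 folds of -0.75 and -0.73, followed by Ric1, Ptpn12, Mphosph9 and Zfp62. By the levels of the high-fat diet alone, among 4873 tests, the nearest to Arc were Rasa2 (5.88 and 3.58 FPKM), 3830408C21Rik, Fam193b, Cdh20 and Zkscan8. No other member of the early gene lists is among these genes.

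Of the 30 early effectors 21 genes matched the promoter table, and 6 of them held the full CRE (28.6%), namely Btg2, Dusp1, Pcsk1, Plk2, Ppp1r15a and Scg2. Over all genes with a promoter, 549 of 27025 held the full CRE, and the lists were not tested against that share. Of 23 matched early transcription factors 1 held it (Maff, 4.35%). Among effectors listed in chow, the motif was in 3 of 7 matched enriched genes (Dusp1, Plk2 and Scg2) and in 1 of 4 matched depleted genes (Btg2). A relation of the motif to the direction of a fold was not tested.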
